A study of Mus musculus with 4 samples.

Results

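The 6 genes described here, Pf4, Itga2b, Vwf, Selp, Gp1bb and Gp9, encode proteins of megakaryocytes and platelets and were listed by name out of 32285 genes in the matrices. Each was present once, and each was measured in all 4 libraries of a mouse single-cell experiment that counted RNA molecules (as unique molecular identifiers, UMIs) and 6 surface antibodies in the same cells. The cells came from bone marrow sampled 10 weeks after transplantation and were sorted for CD45.2 (the donor allele), for Sca1 and Kit, and for the absence of lineage markers, which gives the LSK population that holds blood stem cells and multipotent progenitors. One library each was labelled control, Mll3 deleted, Mll4 deleted and Mll3/4 deleted. Kmt2c encodes Mll3 and Kmt2d encodes Mll4, enzymes that methylate histone H3 at enhancers. The number of mice behind a library, the recipient strain, the alleles, and any Cre driver were not given in the sources used here.

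Megakaryocytes arise in the bone marrow and shed platelets. Their characteristic proteins fall into those stored in alpha granules, such as platelet factor 4 (Pf4), von Willebrand factor (Vwf) and P-selectin (Selp), and those of surface receptors. Itga2b is the alpha chain of the fibrinogen receptor, and Gp1bb and Gp9 are subunits of the receptor complex that binds von Willebrand factor. Several of these genes are also transcribed in a platelet-biased fraction of stem cells, and CD150 (Slamf1) is a surface protein used to enrich such cells. Selp is also made by endothelial cells, and Itga2b by mast cells.

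Pf4 (ENSMUSG00000029373) lies on chr5:90772435-90773383 (plus strand) and Vwf (ENSMUSG00000001930) on chr6:125546774-125686679 (plus strand). Selp (ENSMUSG00000026580) lies on chr1:164115264-164150026 (plus strand) and Itga2b (ENSMUSG00000034664) on chr11:102453297-102470122 (minus strand). Gp9 (ENSMUSG00000030054) lies on chr6:87778072-87779768 (plus strand) and Gp1bb (ENSMUSG00000050761) on chr16:18620317-18622403 (minus strand), all in GRCm38 with GENCODE release 21. Gp1bb overlaps Sept5 on the same strand, so reads of both may have been exchanged or dropped, and Gp1bb is the least certain of the 6. Sept5 itself held 58 UMIs in the control library, 51 in the Mll3 library, 42 in the Mll4 library and 30 in the Mll3/4 library.

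Promoters of 5 of the 6 genes were matched by symbol in the RefSeq table (GRCm38.p6), and 250 bases before each start were searched on both strands for words that ETS and GATA factors, the main transcription factor families of this lineage, are known to prefer. For ETS factors these were the word AGGAAG or else the word CGGAAG. For GATA factors they were the word AGATAA, then the word AGATAG, then the word TGATAA, and lastly the word TGATAG. No ETS word overlapped a GATA word in these promoters. All 5 promoters held an ETS word, which 39.2% of 32851 promoters also held. A GATA word was found in the Gp1bb promoter alone of the 5, and 26.5% of all promoters held one. The parts of the windows free of annotated exons are printed to show where the ETS words lie before the start of each gene, with those words in capitals (CTTCCT is AGGAAG on the other strand). The windows are chr5:90772305-90772434 (plus strand), chr11:102469884-102469942 (minus strand), chr1:164115134-164115263 (plus strand) and chr6:87777940-87778069 (plus strand), each read 5′ to 3′ along the gene.
Pf4: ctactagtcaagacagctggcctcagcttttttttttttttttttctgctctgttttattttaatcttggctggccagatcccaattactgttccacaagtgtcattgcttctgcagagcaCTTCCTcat
Itga2b: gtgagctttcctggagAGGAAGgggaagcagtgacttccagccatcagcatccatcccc
Selp: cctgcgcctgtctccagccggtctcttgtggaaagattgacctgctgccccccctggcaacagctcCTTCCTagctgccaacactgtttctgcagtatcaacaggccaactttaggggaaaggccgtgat
Gp9: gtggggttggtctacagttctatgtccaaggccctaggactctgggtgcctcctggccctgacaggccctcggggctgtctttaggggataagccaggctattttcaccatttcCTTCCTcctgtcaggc
The word lay 9 bases before the RefSeq start in Pf4, 16 in Gp9, 43 in Itga2b (with another at 125, in the part not shown) and 64 in Selp. For Itga2b that start lies within the GENCODE gene. In Gp1bb, whose window overlaps an annotated exon and is not printed, the ETS word lay 90 and the GATA word 22 bases before the start. Such a match describes letters in the sequence and no binding was measured.

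A barcode counted as a cell when it held 1000 genes or more and no more than 10% of its UMIs were mitochondrial. This left 7274 cells in the control library, 6101 under the Mll3 label, 4793 under Mll4 and 4748 under Mll3/4, with 119328763, 105907176, 120700343 and 50792614 UMIs. Values without a library name are given in this order throughout, and each library is also named by its label alone (under the Mll3 label). Kmt2c stood at 68.9, 35.3, 61.3 and 42.3 CPM (counts per 1e6 UMIs of a library) and Kmt2d at 24.6, 21.6, 22.6 and 25.4 CPM. Libraries are therefore called by their labels, since neither label with Mll4 came with clearly less Kmt2d. Whether these 3-prime counts reach a deleted part of either gene was not tested. The filter removed 2909 barcodes of the Mll4-labelled library and 388 to 459 of the others. Between 27 and 37 used cells of each library carried a barcode that another library also held. With 1 library per genotype there was no replicate and no test was run. All intervals are 95% intervals that cover counting error only, and a gene was called when it differed at least 2-fold, on log2 ratios with 0.5 UMIs added to each sum.

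In the library labelled Mll3/4 deleted, all 6 genes were nearly missing. Pf4 held 13 UMIs, Itga2b 20, Vwf 2, Selp 27, Gp1bb 1 and Gp9 10, out of 50792614. Under the Mll3 label Pf4 was lower and Vwf higher than in the control, and under the Mll4 label Gp9 and Gp1bb were lower. Against the control 1 of 6 genes was called lower and 1 higher under the Mll3 label, where 0.958% of 10123 genes with at least 5 CPM on average were called lower and 1.85% higher. Gp1bb alone of the 6 lay under that minimum. Under the Mll4 label 2 of 6 were called lower (4.74% of all genes) and 0 higher (6.44%). Under the Mll3/4 label 6 of 6 were called lower, against 13.7% of all genes. The median log2 ratio of the 6 genes was -0.41 (Mll3), -0.66 (Mll4) and -6.24 (Mll3/4), beside medians of 0.10, -0.11 and -0.12 over all genes tested. Fewer cells of a type and less RNA per cell cannot be told apart in such library sums.

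**Figure D1:**
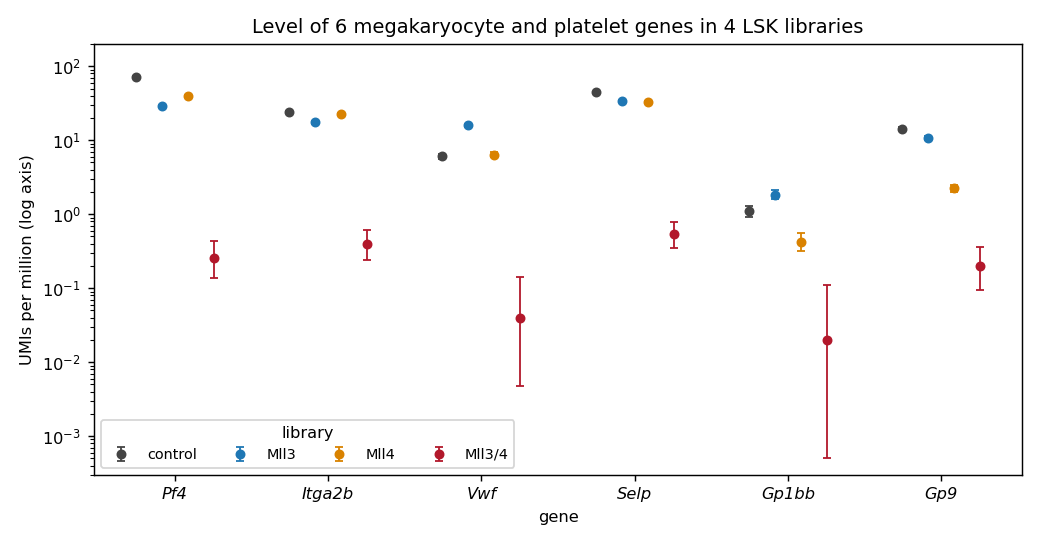
Level of each gene in CPM (log axis) in the 4 libraries, with points for the UMI sum and bars for the exact 95% Poisson interval. All 6 genes lie lowest under the Mll3/4 label, at 0.53 CPM or less, and Vwf lies highest under the Mll3 label.

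Among the granule genes, Pf4, a chemokine released from platelets, stood at 72.5 CPM in the control (interval 71.0 to 74.0), 29.1 (28.1 to 30.2) under the Mll3 label, 39.5 (38.4 to 40.7) under the Mll4 label and 0.26 (0.14 to 0.44) under the Mll3/4 label. The control was highest and no intervals overlapped. Its log2 ratio to the control was -1.32 under the Mll3 label (-1.37 to -1.26), -0.87 under the Mll4 label (-0.93 to -0.82) and -8.09 under the Mll3/4 label (-9.06 to -7.37).

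Vwf, the adhesive protein that tethers platelets to injured vessel walls, stood at 6.04 CPM in the control (5.61 to 6.50), 15.9 under the Mll3 label (15.2 to 16.7), 6.39 under the Mll4 label (5.94 to 6.85) and 0.039 under the Mll3/4 label (0.0048 to 0.14). The Mll3-labelled library was highest, with a log2 ratio of 1.40 (1.27 to 1.53), and the control and Mll4-labelled intervals overlapped. The 2 UMIs of the Mll3/4-labelled library gave a log2 ratio of -6.94 (-10.3 to -5.40).

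Selp, a granule membrane protein that binds leukocytes, stood at 44.3 CPM in the control (43.1 to 45.5), 33.7 under the Mll3 label (32.6 to 34.8), 32.6 under the Mll4 label (31.6 to 33.7) and 0.53 under the Mll3/4 label (0.35 to 0.77). The Mll3-labelled and Mll4-labelled libraries overlapped each other below the control, at log2 ratios of -0.40 and -0.44, while the Mll3/4-labelled library lay at -6.36 (-6.98 to -5.84).

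Among the receptor genes, Itga2b stood at 24.3 CPM in the control (23.4 to 25.2), 17.5 under the Mll3 label (16.7 to 18.3), 22.5 under the Mll4 label (21.7 to 23.4) and 0.39 under the Mll3/4 label (0.24 to 0.61). The log2 ratios were -0.47, -0.11 and -5.91 (-6.66 to -5.32). The near-equal value of the Mll4-labelled library depended on how cells were weighted: with each cell given equal weight its log2 ratio was 1.06, and without the mast/basophil-like and macrophage/monocyte-like clusters described further on it was -0.83.

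Gp9, which the receptor complex needs to reach the surface, stood at 14.4 CPM in the control (13.7 to 15.1), 10.7 under the Mll3 label (10.0 to 11.3), 2.23 under the Mll4 label (1.97 to 2.51) and 0.20 under the Mll3/4 label (0.094 to 0.36). The Mll4-labelled library lay apart from both the control and the Mll3-labelled library, at a log2 ratio of -2.69 (-2.88 to -2.50). Gp1bb, its partner, held 130, 195, 51 and 1 UMIs, or 1.09 CPM (0.91 to 1.29), 1.84 (1.59 to 2.12), 0.42 (0.31 to 0.56) and 0.020 (0.00050 to 0.11). It was highest under the Mll3 label, at a log2 ratio of 0.76 (0.43 to 1.09), and the Mll4-labelled library lay at -1.36 (-1.86 to -0.89). The single UMI under the Mll3/4 label gave -5.21 (-11.1 to -3.29).

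Compared directly with the Mll4-labelled library, the Mll3/4-labelled library was lower in all 6 genes, from a log2 ratio of -3.43 in Gp9 (-4.58 to -2.60) to -7.22 in Pf4 (-8.18 to -6.50).

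The shares of cells with a UMI were compared after thinning every cell to 3000 UMIs, which left out 14, 17, 134 and 33 shallower cells. Pf4 was then seen in 6.67%, 3.19%, 3.18% and 0.064% of cells (19.3%, 9.82%, 10.9% and 0.21% before thinning). Vwf was seen in 1.79%, 4.16%, 1.33% and 0% (6.16%, 13.6%, 5.74% and 0.042%). The 0 of 4715 cells for Vwf carries an upper limit of 0.078%. Selp was seen in 12.1%, 9.55%, 6.61% and 0.11% (42.5%, 34.7%, 28.5% and 0.29%). Vwf was thus seen most often under the Mll3 label, and Pf4 and Selp in the control.

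Itga2b was seen in 5.91%, 3.81%, 9.14% and 0.085% of thinned cells (23.6%, 16.9%, 24.5% and 0.27%). Gp9 was seen in 4.27%, 2.74%, 0.56% and 0.042% (17.4%, 13.8%, 4.07% and 0.13%), and Gp1bb in 0.21%, 0.31%, 0.064% and 0% (1.35%, 2.49%, 0.58% and 0.021%). As a background from free RNA, T and innate lymphoid-like cells, which should lack these genes, were set beside them under the Mll4 label, where they were most numerous (359 cells, median 7562 UMIs, against 21400 for the library). After thinning, 0.58% of them held a Pf4 UMI, 0.86% Itga2b, 0.29% Vwf, 0.29% Selp and 0% Gp1bb and Gp9. These shares rest on 2, 3, 1 and 1 of 347 cells for Pf4, Itga2b, Vwf and Selp. The Pf4, Itga2b and Selp shares of the whole Mll4-labelled library lay above the upper limits (2.07%, 2.51% and 1.60%). Its Vwf share (1.33%) lay within the interval of 0.0073% to 1.60%, and its Gp9 and Gp1bb shares lay under the limit of 1.06%. Under the Mll3/4 label (median 8920 UMIs) the Pf4, Itga2b, Vwf and Selp shares lay below those of the lymphoid-like cells. Those cells come from another library, whose free RNA may differ. The few UMIs of the Mll3/4-labelled library were not spread evenly over cells, as the counts inside and outside its B-lineage-like clusters, given with the clusters, show.

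UMIs of Pf4 were gathered in very few cells. In the control, 15 of 7274 cells held 50% of all Pf4 UMIs, and 1 cell held 662. Under the Mll3 and Mll4 labels 17 and 6 cells held as much, with 199 and 975 UMIs in the highest cell. Selp was spread far more widely, with 885, 596 and 295 cells holding 50% of its UMIs and no cell above 24 UMIs. Itga2b needed 427, 230 and 241 cells, Vwf 107, 206 and 51, Gp9 412, 276 and 61, and Gp1bb 33, 55 and 5.

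Cells with at least 20 Pf4 UMIs, a cut chosen after the values were seen, numbered 45 in the control, 28 under the Mll3 label, 29 under the Mll4 label and 0 under the Mll3/4 label, and held 68.0%, 61.5% and 72.1% of Pf4 UMIs in the first 3. In the control 42 of the 45 also held an Itga2b UMI, 38 Gp9, 35 Vwf and 26 Gp1bb, at a median of 24669 UMIs per cell. Under the Mll3 label these were 27, 22, 26 and 17 of 28 cells, and under the Mll4 label 21, 17, 18 and 9 of 29. Selp was held by 22 of 45, 16 of 28 and 21 of 29. The unthinned shares over all cells, given above, came from lower medians of 14454, 15381 and 21400 UMIs per cell. The part of depth in these counts was not tested. Without the cells of at least 20 Pf4 UMIs, Pf4 stood at 23.5, 11.3, 11.2 and 0.26 CPM. The Pf4 log2 ratio to the control was then -1.05, -1.07 and -6.46. Pf4 thus passed 2-fold lower under the Mll4 label too, where 3 of the 6 genes were then lower (4.79% of all genes). Since cells were removed by Pf4 itself, at a count not scaled to depth, this Pf4 call cannot be told apart from the cut. Gp1bb was then called higher under the Mll3 label, at a log2 ratio of 1.18, which made 2 of the 6 genes higher there (1.90% of all genes).

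Itga2b, Gp9 and Vwf were seen more often in thinned cells with Pf4 than in those without it, and Selp was not. Among the 484 thinned control cells with a Pf4 UMI, 13.8% held Itga2b, against 5.34% of cells without Pf4. The same pair gave 14.9% against 3.45% under the Mll3 label and 16.9% against 8.89% under the Mll4 label. Gp9 was found in 9.30% of control cells with Pf4 and 3.91% of those without, and Vwf in 4.13% and 1.62%. Under the Mll3 label Gp9 gave 7.22% against 2.60% and Vwf 11.9% against 3.90%. Under the Mll4 label Vwf gave 5.41% against 1.20%. Gp9 there rested on 2 of 148 cells with Pf4, and its intervals overlapped (0.16% to 4.80% against 0.34% to 0.79%). Gp1bb was found in 1.45% and 0.12% of control cells, on 7 and 8 cells. Selp was found in 10.95% of cells with Pf4 and 12.2% of those without in the control, and in 7.73% against 9.61% and 5.41% against 6.65% under the Mll3 and Mll4 labels. The part of doublets in these pairs was not tested.

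Surface CD150 was then used to order the cells. The cells of each library were ranked by the CD150 antibody (its centred log ratio over the 6 antibodies) and cut into 4 bins of equal cell number. From the lowest to the highest bin of the control, Pf4 stood at 4.47, 9.98, 44.4 and 259 CPM, and Vwf at 0.98, 1.01, 2.78 and 21.5. Gp9 stood at 5.28, 8.02, 14.6 and 32.8 CPM and Itga2b at 10.6, 16.8, 27.9 and 46.6. Gp1bb held 1, 6, 16 and 107 UMIs in the same bins. Selp stood at 42.5, 45.7, 45.6 and 43.8 CPM and did not follow CD150. The top bin was 57.7-fold above the bottom in Pf4, 21.7-fold in Vwf, 6.21-fold in Gp9 and 4.41-fold in Itga2b, and Selp differed by a log2 ratio of 0.04 (-0.07 to 0.16).

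In the control, 5 of 6 genes were called higher in the top bin and 0 lower (3.17% and 1.94% of 9790 genes), and under the Mll3 label also 5 and 0 (4.35% and 3.59%). The Mll4-labelled library had 4 of 6 higher and 0 lower (4.7% and 1.96%). Under the Mll3/4 label only the 3 genes with more than 3 UMIs in the top or the bottom bin were compared. Of those, 2 were past 2-fold higher and 0 lower (0.284% and 0.179% of genes with at least 5 CPM, a level these genes did not reach). Of these 2, Itga2b had a log2 ratio of 1.80 (0.18 to 4.00) and Gp9 one of 1.91, with an interval of -0.26 to 5.43 that holds 0. A single cell held 7 of the 12 Itga2b UMIs of the top bin, and another held 4 of its 7 Gp9 UMIs. The intervals treat the UMIs of 1 cell as independent, so they are too narrow here. The median log2 ratio of top to bottom was 3.54, 4.23 and 3.80 in the first 3 libraries, and 3.63 under the Mll4 label with the absent Gp1bb of its bottom bin set to 3 UMIs. The transcript of CD150, Slamf1, followed the antibody, from 0.58 CPM in the bottom bin of the control to 29.0 in the top. The same bins held 0.43 and 37.1 CPM of Slamf1 under the Mll3 label, 1.66 and 18.6 under the Mll4 label and 0.79 and 3.60 under the Mll3/4 label.

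Under the Mll3 label the top bin was 40.6-fold above the bottom in Pf4 (71.2 against 1.73 CPM), 69.8-fold in Vwf (54.2 against 0.76), 8.61-fold in Itga2b (30.6 against 3.54) and 5.57-fold in Gp9 (18.8 against 3.36). Gp1bb held 102 UMIs in the top bin and 2 in the bottom. Selp stood at 37.9 against 33.7 CPM.

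The Mll4-labelled library had Pf4 at 133 against 4.45 CPM in the top and bottom bins (29.9-fold), Vwf at 24.0 against 0.87 (27.4-fold) and Gp9 at 6.38 against 0.89 (7.09-fold). Gp1bb held 47 UMIs against 0, at least 21.4-fold when 3 UMIs over the bin are allowed. Itga2b stood at 28.0 against 17.6 CPM (1.59-fold). Over the alternative settings given at the end, its log2 ratio ran from -1.07 (cells weighted equally) to 1.92. Mast/basophil-like cells were 13.7% of the bottom bin and 3.09% of the top, and macrophage/monocyte-like cells 8.26% and 19.0%. The top bin of this library also held cells below the CD150 threshold: MPP1 made up 9.10% of it, MPP3 28.9% and MPP4 17.9%, gates without CD150 that made up 0% of the control's top bin. Its median CD150 count was 72, against 174 in the control. The part of this makeup in the differences between bins was not tested. Selp stood at 47.0 against 34.1 CPM, and its log2 ratio ran from 0.35 to 1.10 over the alternative settings.

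Under the Mll3/4 label Itga2b held 12 against 4 UMIs, Selp 12 against 12 and Gp9 7 against 2, and the other 3 genes had 3 UMIs or fewer in both. The median CD150 count was 59 in its top bin and 24 in its bottom bin, against 174 and 8 in the control, so that its bins spanned a narrower range of CD150.

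**Figure D2:**
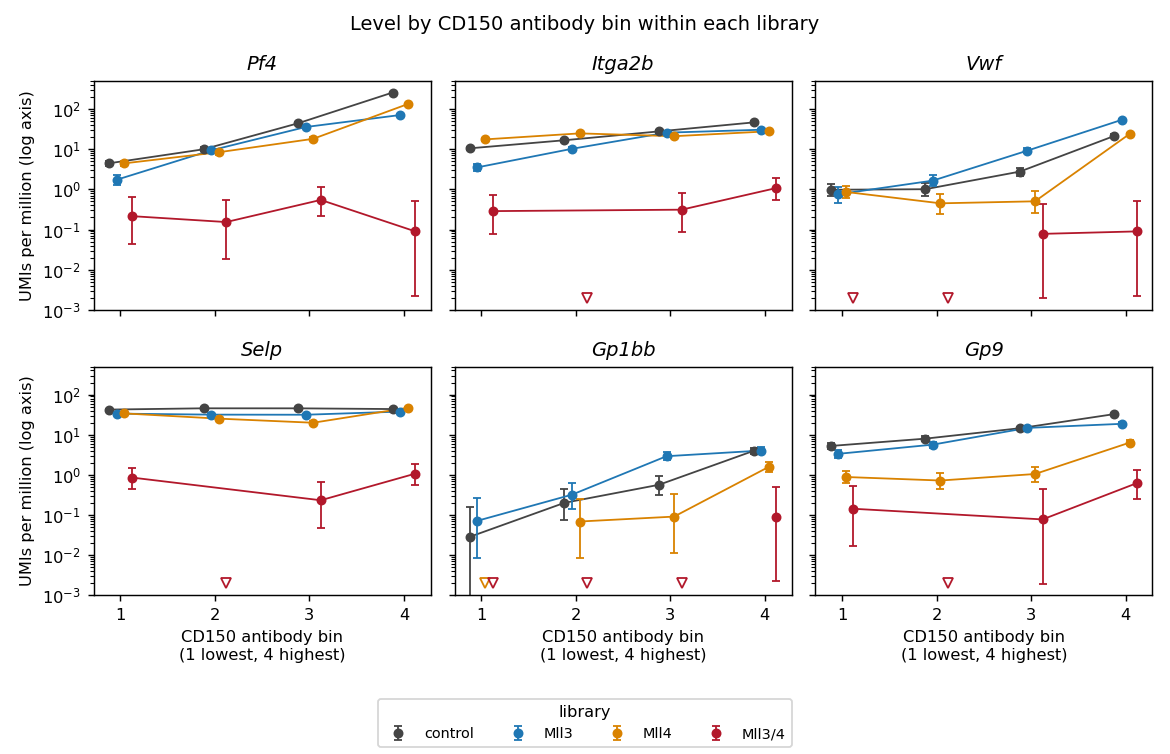
Level of each gene in CPM (log axis) in 4 bins of cells ranked by CD150 antibody within each library, with exact 95% Poisson intervals as bars and open triangles at the foot of a panel for bins with 0 UMIs. Pf4, Itga2b, Vwf, Gp1bb and Gp9 are highest in bin 4 in the control, Mll3-labelled and Mll4-labelled libraries. Selp stays between 19.99 and 47.0 CPM in those 3 libraries. Under the Mll3/4 label Itga2b, Vwf, Gp1bb and Gp9 are highest in bin 4 on 12, 1, 1 and 7 UMIs, and Pf4 is not.

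Antibody gates gave a second view. Among cells without CD135, those with CD150 alone were called HSC, those with CD150 and CD48 MPP2, those with CD48 alone MPP3, and those with neither MPP1. Cells with CD135 were called MPP4 when they lacked CD150, and CD150+CD135+ otherwise. The CD135 cut was the least clear. On the centred log ratio its low and high means lay at -1.49 and -0.73, around a threshold of -0.95. Those means were -1.37 and 0.43 for CD150, and 0.46 and 2.92 for CD48. On log raw counts the CD135 threshold fell at the low mean itself. Every gate rests on this cut, so cells near it may lie in the wrong gate. Gates under 100 cells were not used. In the control 5 of the 6 genes were highest in a gate with CD150, and Selp was highest in MPP1 (49.5 CPM). Pf4 stood at 116 CPM in HSC, 471 in MPP2 and 650 in CD150+CD135+ cells, against 31.7, 13.5 and 7.11 in MPP1, MPP3 and MPP4. A single cell held 596 of the 1112 Pf4 UMIs of the 126 CD150+CD135+ cells, and without it the level was 301.5 CPM.

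Under the Mll3 label Pf4 was lower than in the control in all 6 gates, by log2 ratios from -2.70 (CD150+CD135+) to -1.12 (MPP3). Single cells weighed on 3 of these gates: 1 cell held 183 of 359 Pf4 UMIs in CD150+CD135+, 103 of 163 in MPP3 and 145 of 428 in MPP2. Without that cell the level was 48.8 in place of 99.6 CPM, 2.27 in place of 6.17 and 57.0 in place of 86.1. Vwf was higher in its HSC gate (30.9 against 17.7 CPM, log2 ratio 0.81, 0.65 to 0.97), while in the other 5 gates the interval of its log2 ratio held 0. The HSC gate made up 44.4% of the Mll3-labelled library and 23.7% of the control, and with cells weighted to the gate shares of the control the Vwf log2 ratio of the whole library was 0.60, under 2-fold. The same weighting gave Pf4 a log2 ratio of -1.79.

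The HSC gate of the Mll4-labelled library held 358 cells, 7.47% of the library, and Vwf was higher in it than in the control (49.3 against 17.7 CPM, log2 ratio 1.48, 1.29 to 1.68). It was also higher in MPP2 (30.2 against 13.9 CPM, 1.12, 0.77 to 1.49) and lower in MPP1 and MPP3, at 0.93 and 0.65 CPM. Weighted to the gate shares of the control, Vwf was called higher under the Mll4 label, at a log2 ratio of 1.43, and Gp1bb was no longer called lower, at -0.25. Pf4 stood at -0.10 under that weighting. Gp9 was lower in all 5 gates with at least 100 cells, by log2 ratios from -2.98 to -1.60. Pf4 stood at 43.1 CPM in MPP4 cells of the Mll4-labelled library against 7.11 in the control, a log2 ratio of 2.60 (2.29 to 2.92). One cell held 124 of its 486 UMIs, and the level without it was 32.1 CPM.

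Under the Mll3/4 label a gate name gives the antibody pattern and not the cell type. All but 29 of its 4748 cells lay in B-lineage-like clusters, described further on. On the centred log ratio, CD150 was above the threshold in 44.0% of its cells, against 30.2% in the control. That ratio is relative to the other antibodies of the cell and does not show more CD150. The raw median CD150 count of its top bin was 59, against 174 in the control. Slamf1 stood at 1.71 CPM, against 8.39 in the control. The 215 cells of its HSC gate held 0 Pf4, 0 Vwf, 2 Itga2b, 2 Selp, 1 Gp1bb and 6 Gp9 UMIs, the last at 2.81 CPM (1.03 to 6.11). Of the 6 Gp9 UMIs 4 lay in 1 cell, and without it the level was 0.94 CPM. The 109 cells of MPP2 held 1 Pf4, 1 Vwf, 8 Itga2b, 10 Selp, 0 Gp1bb and 1 Gp9 UMIs, which put Itga2b at 7.20 CPM (3.11 to 14.2) and Selp at 9.001 CPM (4.32 to 16.6). The largest gates were MPP4 (42.9% of cells) and CD150+CD135+ (37.2%), where Pf4 stood at 0.17 and 0.34 CPM.

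**Figure D3:**
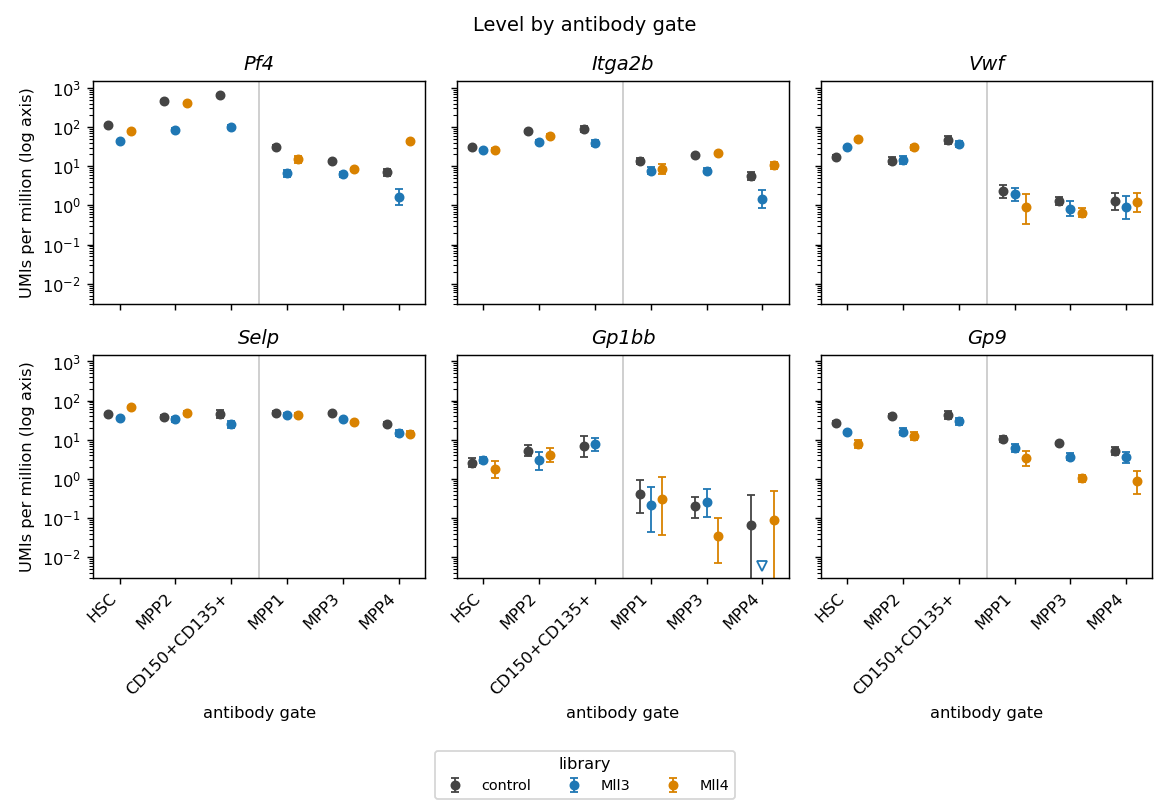
Level of each gene in CPM (log axis) by antibody gate in the control, Mll3-labelled and Mll4-labelled libraries, with exact 95% Poisson intervals as bars and an open triangle for 0 UMIs. The 3 gates with CD150 are left of the grey line. The CD150+CD135+ gate of the Mll4-labelled library held 26 cells and is not drawn.

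Joint clusters of the 4 libraries, made without the 6 genes and the other megakaryocyte genes, showed which cells held the UMIs. No cluster met the rule for a megakaryocyte-like name. Of control clusters with at least 50 cells, Pf4 was highest in cluster 4, which stayed unnamed and had Ung, Nefh and E2f1 among its leading genes (217 CPM), and in the HSC-like cluster it stood at 56.3 CPM. Outside these, 15 macrophage/monocyte-like control cells held 53 Pf4 UMIs, or 428 CPM. Vwf was highest in the HSC-like cluster of both libraries (19.6 CPM in the control and 35.0 under the Mll3 label), which held 31.9% and 52.5% of its UMIs. Within that cluster Pf4 stood at 30.7 CPM under the Mll3 label, against 56.3 in the control. With the megakaryocyte genes among the clustering genes and a finer resolution of 1.0, a megakaryocyte-like cluster of 1145 cells appeared, with 318, 818, 2 and 7 cells. Those genes set that cluster, so its levels are not given as results.

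The UMIs of the Mll4-labelled library lay mostly in clusters that were rare in the control. Unnamed clusters held 78.5% of its Pf4 UMIs, but they were other clusters than in the control: cluster 6 had 1025 Mll4-labelled and 0 control cells and cluster 13 had 478 and 1, while clusters 0, 2, 4 and 8, with most unnamed control cells, had 1 to 6 Mll4-labelled cells each. Its mast/basophil-like cluster, 615 cells led by Mcpt4, Cma1 and Tpsb2, held 39.1% of its Itga2b UMIs at 249 CPM, and 1 such cell each was found in the control and the Mll3-labelled library. Its macrophage/monocyte-like clusters, 982 cells, held 18.3% of its Pf4 UMIs and 8.35% of its Itga2b UMIs, and its granulocyte-like clusters 21.1% of its Selp UMIs. Of the 29 cells with at least 20 Pf4 UMIs in this library, 8 lay in a macrophage/monocyte-like cluster and 12 held a UMI of C1qb, a macrophage gene, against 1 of 45 and 1 of 45 in the control. The 10 mast/basophil markers summed to 1721 CPM under the Mll4 label, against 26.7 in the control, 12.3 under the Mll3 label and 3.92 under the Mll3/4 label. All 10 were at least 2-fold higher in it, and Tpsb2 was at 0 in the other 3 libraries. The 10 macrophage/monocyte markers summed to 2267 CPM against 330, 368 and 20.9, with all 10 higher and none at 0 in any library. Granulocyte markers summed to 15675 CPM against 1779, 1532 and 43.1 (9 of 9 higher), and endothelial markers, listed because endothelial cells make Selp and Vwf, to 89.8 CPM against 30.8, 27.8 and 9.39 (9 of 10 higher), with 3 endothelial markers at 0 under the Mll3/4 label. No cluster was named endothelial-like at this resolution, and at a resolution of 0.3 only 26 cells were, 18 of them under the Mll4 label. Of the endothelial markers, Fabp4 was a leading gene of macrophage/monocyte-like cluster 12 and Stab2 of T and innate lymphoid-like cluster 14. The sum is therefore no measure of endothelial cells alone. The part of endothelial cells in the Selp and Vwf levels was not tested. Without the mast/basophil-like and macrophage/monocyte-like clusters the Mll4-labelled log2 ratio to the control was -0.83 for Itga2b and -0.96 for Pf4.

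Only 29 of the 4748 cells of the Mll3/4-labelled library lay outside its B-lineage-like clusters. Those 29 cells held 47 UMIs of the 6 genes, 23 of them of Selp in 10 cells and 13 of Itga2b in 6 cells, with Selp at 29.5 CPM (18.7 to 44.2), Itga2b at 16.7 (8.87 to 28.5) and Gp9 at 10.3 (4.43 to 20.2). The 4719 B-lineage-like cells held 26, with Pf4 at 0.24 CPM (0.12 to 0.42) and 0 UMIs of Gp1bb. None of the 28 cells of this library that shared a barcode with another library lay outside the B-lineage-like clusters. The 10 B-lineage markers summed to 11300 CPM in this library against 56.5 in the control, and 9 of 10 were at least 2-fold higher. The part of that makeup in the low levels of the 6 genes was not tested beyond these counts.

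**Figure D4:**
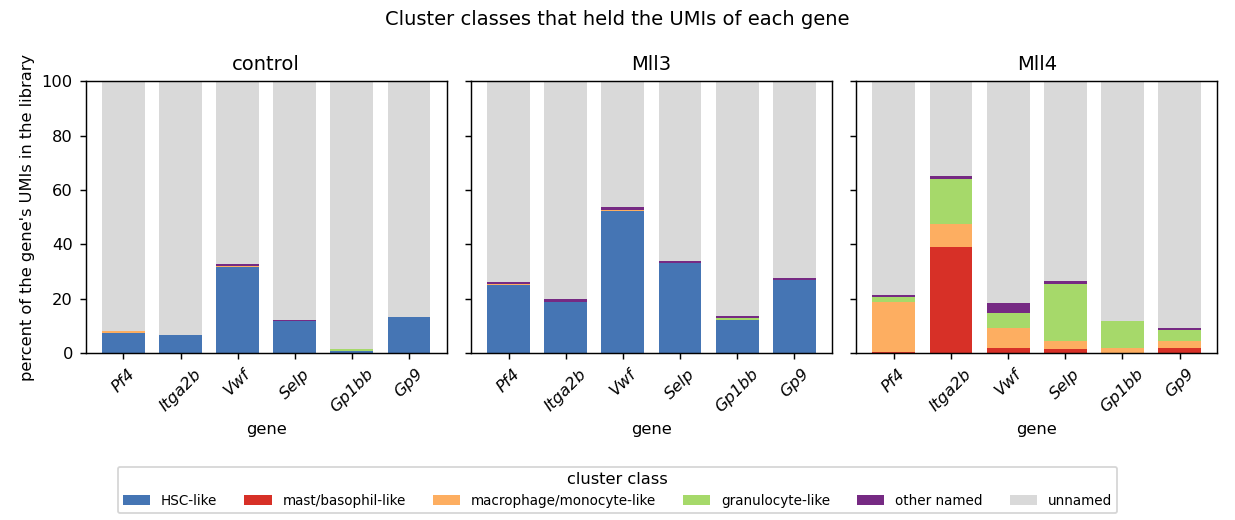
Percent of the UMIs of each gene that lay in cells of each cluster class, in the control, Mll3-labelled and Mll4-labelled libraries. Under the Mll4 label mast/basophil-like cells hold 39.1% of Itga2b UMIs and macrophage/monocyte-like cells 18.3% of Pf4 UMIs, while in the control unnamed clusters hold 91.7% of Pf4 UMIs. The unnamed class is made of clusters 0, 2, 4, 8 and 15 in the control and mainly of clusters 6 and 13 under the Mll4 label, so its bars do not stand for the same cells.

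Other genes of the lineage were read from 4 lists. Of 12 transcription factors 0 were called under the Mll3 label, 3 lower under the Mll4 label and 9 lower under the Mll3/4 label, with median log2 ratios of 0.07, -0.64 and -4.30. Mef2c stood at 279, 332, 227 and 231 CPM and Runx1 at 111, 119, 132 and 80.7, both under 2-fold in each library. Meis1, a stem-cell and megakaryocyte regulator, stood at 185, 233, 79.6 and 55.6 CPM, and Etv6 at 147, 142, 136 and 35.5.

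Of 14 receptor and surface genes, 12 could be compared under the Mll3 label, with 1 lower and 0 higher. Of 13 under the Mll4 label 8 were lower and 4 higher, and under the Mll3/4 label 11 of 12 were lower. Cd9 stood at 91.2, 126, 35.2 and 36.8 CPM, F2rl3, a thrombin receptor, at 18.0, 20.2, 6.25 and 0.16, and P2rx1, an ATP receptor, at 11.6, 8.35, 2.04 and 0.12.

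The 8 granule genes split in all 3 libraries: 2 lower and 2 higher under the Mll3 label, 2 lower and 5 higher under the Mll4 label, and 6 lower and 2 higher under the Mll3/4 label. Mmrn1, which binds factor V in granules, stood at 19.0, 9.68, 6.65 and 152 CPM and was thus higher in the library in which the 6 genes were lowest. Serpine2, a protease inhibitor, stood at 3.14, 1.06, 16.6 and 18.4 CPM. Mmrn1 and Serpine2 were the 2 genes of this list that were higher under the Mll3/4 label. There 6 of the 8 genes lay below 1 CPM, against 3 in the control, and the median log2 ratio was -3.36.

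Of 8 cytoskeleton, secretion and enzyme genes, 0 were lower and 2 higher under the Mll3 label, 3 and 3 under the Mll4 label, and 5 and 1 of 7 compared under the Mll3/4 label. Nrgn stood at 204, 142, 66.8 and 1.75 CPM and Gng11 at 76.0, 84.8, 40.8 and 1.12. Plek, a platelet kinase substrate, stood at 34.2, 17.9, 93.0 and 2.17 CPM. Cavin2 stood at 10.6, 31.2, 5.49 and 31.3 CPM, so it was higher than in the control under the Mll3/4 label as well.

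Genes whose pattern was most like each of the 6 were sought over 29 cluster-by-library units of at least 50 cells, among 9796 genes, by Pearson's r of log2(CPM + 1). The units share libraries, so r is a description. Vwf was most like Erp27 (r = 0.92), Clec1a (0.91) and Slamf1 (0.89), Itga2b most like Tal1 (0.88), Gata2 (0.85) and Lhfpl2 (0.85), and Selp most like Tie1 (0.94), Tnfsf13os (0.93) and Lmo2 (0.93). Gp9 was most like Nwd1 (0.94), Tfr2 (0.93) and Vamp5 (0.93), and Pf4 most like Phf11d (0.83), Crispld1 (0.82) and Heatr5a (0.82). Gp1bb reached 3.54 CPM at most in a unit, and its nearest genes were Ptn (0.85), Eldr (0.77) and Brca2 (0.74). Among the 6 themselves r ran from 0.48 (Itga2b with Vwf) to 0.80 (Pf4 with Selp).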

How the data were processed

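Gene expression and 6 antibodies were measured in 4 libraries of sorted mouse bone marrow cells. The deposited values were raw counts of UMIs and antibody tags per barcode, and per the file headers the matrices came from Cell Ranger 6.1.1; the build mm10 is named in the submitters' processing notes. The authors' barcode filter is not given in the sources used here. Of 32285 gene identifiers 99.8% were found in GENCODE mouse release 21. Groups came from sample titles.

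Counts were summed over the cells kept (1000 genes or more, mitochondrial UMIs no more than 10%) and divided by the library total. Levels carry exact Poisson intervals, shares Clopper-Pearson intervals, and ratios exact conditional intervals, at 95%. Scrublet called 2, 1, 152 and 4 doublets (control, Mll3-labelled, Mll4-labelled, Mll3/4-labelled), too few for it to have worked in 3 libraries, so doublets were kept and the highest scores removed as an alternative. Clusters used 2000 variable genes, 30 components, 15 neighbours and Leiden resolution 0.6 (scanpy 1.11.5, leidenalg 0.10.2), and a name needed 3 fixed markers raised 2-fold at 20 CPM. TMM came from edgeR 4.0.16. Ratio code was checked on simulated data. Named genes were the 6 members, Slamf1, the 4 highest genes of each list, and the 3 most alike per member. Not every gene so named is reported here. The members, lists and rules were chosen with earlier results of these data known. Promoter sequences came from RefSeq.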

Additional observations from a re-analysis of the deposited data

Results flagged for a closer look

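Some genes of the Mll4-labelled library differed from the control in opposite directions in different antibody gates. Pf4 was higher in the MPP4 gate (log2 ratio 2.60) and lower in MPP1 (-1.05). Vwf was higher in the HSC gate (1.48) and in MPP2 (1.12), and lower in MPP1 (-1.21) and MPP3 (-1.02). The difference between gates was not tested, since each gate had 1 library per genotype. All these gates also rest on the CD135 cut, whose low and high means lay close together. The MPP1 value of Vwf rests on 6 UMIs under the Mll4 label and 28 in the control.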

How the results depend on the processing

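With 1 library per genotype, no result has a replicate check. No paired analysis was possible because each genotype had 1 library. All 12 alternatives tried left the 6 genes at least 2-fold lower in the Mll3/4-labelled library (other scalings, cell filters, doublet removal, weights, added counts, cells left out). The number higher under the Mll3 label became 0 with cells weighted to the gate shares of the control (1.84% of all genes in that setting). It became 2 without the cells of at least 20 Pf4 UMIs (1.90%), a setting chosen after seeing the data. Under the Mll4 label the number higher became 1 with cells weighted equally (Itga2b, 9.56% of all genes) and 1 with the gate weights (Vwf, 5.20%). The number lower became 1 with the gate weights (2.41%). Of 216 recomputed log2 ratios to the control 2 changed sign, Itga2b (1.06) and Vwf (-0.14) under the Mll4 label with equal weights. Of 189 recomputed CD150 ratios 4 changed sign, 3 of Selp and Itga2b under the Mll4 label (-1.07 with equal weights). That value makes 1 gene lower in the top bin there, where the main setting had 0. The counts of genes higher in the top bin stayed within 1.5 times under the 9 alternatives. That range still leaves room for changed calls. Under the Mll4 label Itga2b (up to 1.92) and Selp (up to 1.10) passed 2-fold higher in an alternative, though neither did in the main setting. With a minimum of 20 CPM or of 1 UMI, the share of all genes called lower under the Mll3/4 label was 10.5% or 20.6%. The mast/basophil-like share of Itga2b UMIs was 39.1% at the 3 resolutions and with the megakaryocyte genes included. Cause was not tested for any of these shifts. The 50792614 UMIs of the Mll3/4-labelled library limit Vwf and Gp1bb, which rest on 2 and 1 UMIs there.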
